A study of Mus musculus with 14 samples.

Results

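H19 and Igf2 are neighbouring imprinted genes on mouse chromosome 7. They were matched by symbol to the gene identifiers of 4 tables that hold 16545 named genes in all. They were chosen from measured values of these data: H19 held the most counts of any gene in the m6A-RIP and Igf2bp3-RIP libraries, and Igf2 RNA was lower in Lin28a+ cells. Those values are therefore given as a description with no test, and so is the m6A-RIP change of Igf2, since an m6A-RIP count moves with the amount of RNA. H19 had 2 rows in the m6A-RIP table, 1 Igf2bp3-RIP peak and 1 Lin28a-RIP peak. Igf2 had 1 row in the input table and 6 rows in the m6A-RIP table. H19 RNA in the input, and Igf2 in the Igf2bp3-RIP and Lin28a-RIP, were not analysed here, so none of the H19 values can be set against the amount of H19 RNA.

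The study compared muscle stem cells (MuSCs) positive for the RNA-binding protein Lin28a with control MuSCs from mouse skeletal muscle. The mice that gave the Lin28a+ cells carried Lin28a-CreERT2, an inducible Cre recombinase driven from Lin28a, and LSL-tdTomato, a red reporter that Cre switches on, by which the cells were picked in a cell sorter. Both groups were grown on Matrigel in medium with serum. Each group gave 2 libraries of input RNA, 2 of m6A-RIP (RNA pulled down with an antibody to N6-methyladenosine) and 2 of Igf2bp3-RIP (RNA pulled down with Igf2bp3), and Lin28a+ MuSCs also gave 2 of Lin28a-RIP, 14 libraries in all. The labels do not say whether the libraries of a group came from separate animals or cultures, nor the age of the mice or the origin of the control cells, so p-values measure the spread between these libraries only. Lin28a itself, which would check the group labels, was not analysed here.

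H19 is a long noncoding RNA transcribed from the maternal chromosome and the host of the miR-675 hairpin. Igf2 encodes a fetal growth factor transcribed from the paternal chromosome, and an intron of the gene holds the miR-483 hairpin. An imprinting control region bound by CTCF on the maternal allele decides which of these genes the shared enhancers reach. Both genes are known to be active in embryonic muscle and in myogenic cells. Igf2bp3 belongs to the family of Igf2 mRNA-binding proteins, which read m6A, and Lin28a binds RNA at short GGAG stretches and blocks maturation of let-7. Parental alleles were not told apart in any of these libraries.

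In RefSeq (GRCm38.p6), H19 lay at chr7:142575530-142578146 on the minus strand, 2617 bases, and Igf2 at chr7:142650768-142666816, with 72621 bases between them. The miRNA sequences of both hosts, from RefSeq, are shown because the peaks described here are placed against the miR-675 hairpin, with capitals for the seed, bases 2 to 8. The miRNAs themselves were not measured.
miR-675-5p: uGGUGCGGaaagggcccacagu
miR-675-3p: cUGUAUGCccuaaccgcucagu
miR-483-5p: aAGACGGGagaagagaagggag
miR-483-3p: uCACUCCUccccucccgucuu
These 4 mature miRNAs carry 4 different seeds. The miR-675 hairpin, at chr7:142577064-142577147 inside H19, is shown whole with GGACU in capitals, a motif at which m6A is commonly placed.
Mir675: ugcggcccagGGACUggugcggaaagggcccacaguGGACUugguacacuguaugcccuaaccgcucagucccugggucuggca
On the transcript strand, GGACU stood 2 times in this hairpin and in 8.16% of 1005 mouse hairpins of RefSeq. GGAG stood 0 times in the Mir675 hairpin and 2 times in the Mir483 hairpin, at chr7:142654924-142654996 inside Igf2, beside 44.5% of the same 1005 hairpins with at least 1. A match says only that these letters are there.

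The input libraries summed to 4842915 to 6220960 estimated counts. The m6A-RIP libraries summed to 21350962 to 31830638 counts, and the Lin28a-RIP libraries to 33908110 and 36610494. The Igf2bp3-RIP libraries were unequal in depth, with 9215355 (replicate 1) and 27592959 (replicate 2) counts in control and 12617254 and 34142094 in Lin28a+ MuSCs. Lin28a+ columns of the input and m6A-RIP tables carry no usable replicate number, and they are called library A and library B within each table. The headings over the Lin28a+ input values are titles that belong to m6A-RIP libraries. These values were read as input RNA because the input samples point to that table, and every Lin28a+ RNA value depends on this choice. Of 8 muscle stem cell markers, 7 were in the input table, and their sums were 8290 and 8680 CPM (counts per 1000000 counts of the library) in control against 8840 and 8953 CPM in Lin28a+ MuSCs. Myod1 made up 4542 and 4708 CPM of these sums in control against 4752 and 4775 CPM in Lin28a+ MuSCs. Of the markers of other cell types, 5 of 6 for pericytes or smooth muscle (Des, also a muscle gene, among them) summed to 6960 and 7128 CPM in control against 8683 and 8696 CPM. Acta2 made up 5312 and 5396 CPM of these sums against 7484 and 7495 CPM, and of the 4 tested Acta2 and Pdgfrb rose and Des and Rgs5 fell. The sums were 122 to 133 CPM for 4 of 7 markers of fibro-adipogenic progenitors, of which Col3a1 made up 117 to 120 CPM. Ly6a, the Sca-1 antigen of these progenitors, rose from 3.84 and 4.58 CPM to 13.6 and 12.7 CPM (log2 fold change 1.61, adjusted p = 1.14e-04 with edgeR's quasi-likelihood test). The sums were 2.43 to 4.97 CPM for 4 of 5 of macrophages, and 0.392 to 0.501 CPM for 1 of 5 of endothelium.

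H19 was the gene with the most counts in all 4 m6A-RIP libraries and all 4 Igf2bp3-RIP libraries. Over its 2 rows, H19 took 6.24% and 6.12% of all m6A-RIP counts in control MuSCs and 9.98% and 9.66% in Lin28a+ MuSCs. Next came Pex2, which encodes a peroxisome assembly protein, with 3.79% to 5.10% of counts. In Igf2bp3-RIP, H19 took 5.05% and 6.19% of counts in control MuSCs and 10.4% and 7.79% in Lin28a+ MuSCs, where the highest other gene took between 0.881% (Pabpc1, the poly(A)-binding protein) and 2.44% (Ahnak, a giant scaffold protein). In Lin28a-RIP, H19 took 0.269% and 0.293% of counts, with rank 54 and 48 of 3491 genes, and Ahnak held 2.72% and 2.76%. The shares of the RIPs are not on 1 scale, since peaks were called separately: the H19 peak was 2528 bases wide in Igf2bp3-RIP and 257 bases in Lin28a-RIP, and per length it was the highest peak of both. Wilson 95% intervals reached at most 0.0169 percentage points to each side of the H19 shares and cover counting error only.

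**Figure D1:**
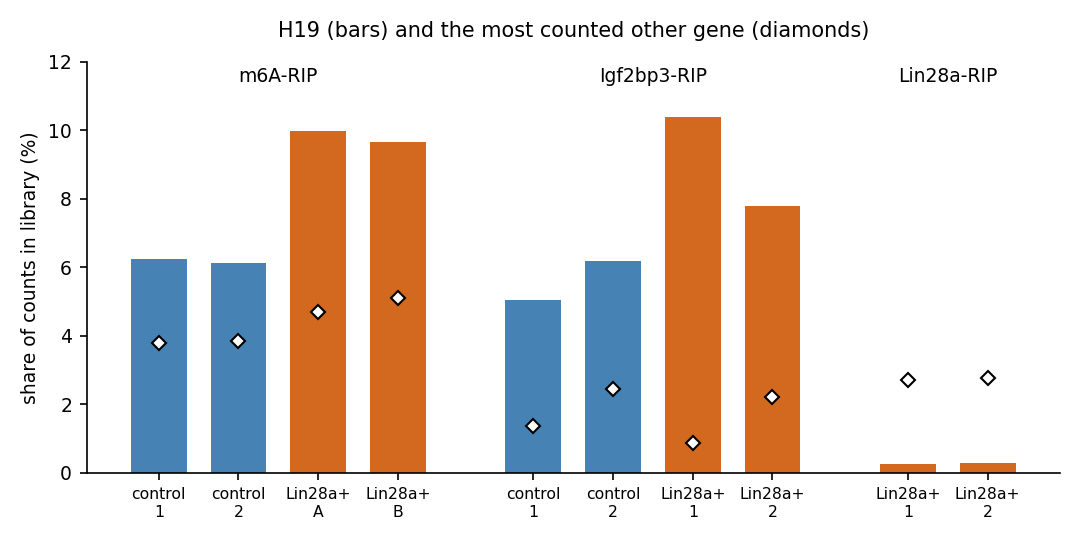
Share of all counts of a library taken by H19 (bars, %, blue for control and orange for Lin28a+ MuSCs) and by the most counted other gene (diamonds), 1 bar per library. H19 took 5.05% to 10.4% of every m6A-RIP and Igf2bp3-RIP library, above the highest other gene, and under 0.3% of both Lin28a-RIP libraries, below it.

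The m6A-RIP signal of H19 rose in Lin28a+ MuSCs. Over its rows summed, H19 stood at 62449 and 61174 CPM in control replicates 1 and 2 and at 99786 and 96611 CPM in Lin28a+ libraries A and B. Both Lin28a+ libraries were above both control libraries, and the libraries of a group lay within 1.03-fold of each other. The group means, 61812 ± 902 and 98199 ± 2245 CPM (SD, n = 2 each), were 1.59-fold apart. By edgeR's quasi-likelihood test with Benjamini-Hochberg adjustment, the log2 fold change was 0.77 (SE 0.0218, adjusted p = 2.72e-11), and 32.5% of the 9416 genes tested rose in this comparison. The log2 fold change of H19 was exceeded by 6.57% of these genes. An m6A-RIP count rises with methylation and with the amount of RNA alike, and these cannot be told apart for H19.

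Both m6A-RIP rows of H19 rose. Row 1, assigned to transcript ENSMUST00000140716.1, stood at 9359 and 9857 CPM in control against 16199 and 16512 CPM in Lin28a+ MuSCs. Row 2, assigned to ENSMUST00000136359.7, stood at 53090 and 51317 CPM in control against 83586 and 80099 CPM in Lin28a+ MuSCs. Neither row overlapped between the groups, beside 29.7% of all 18881 rows that were higher in Lin28a+ MuSCs without overlap. With edgeR's quasi-likelihood test, the log2 fold changes were 0.92 for row 1 (SE 0.0279, adjusted p = 3.48e-12) and 0.80 for row 2 (SE 0.0237, adjusted p = 2.69e-12), and 30.0% of all rows rose. Row 1 held 15.0% and 16.1% of the m6A-RIP counts of H19 in control and 16.2% and 17.1% in Lin28a+ MuSCs, so row 2 held most of the gene's counts in every library. Scaled to total counts instead of TMM factors (edgeR's normalization), the rows called changed from 5665 higher and 6005 lower to 3842 higher and 7638 lower, and the log2 fold changes of the H19 rows were 0.77 and 0.65.

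The only Igf2bp3-RIP peak of H19, assigned to ENSMUST00000132294.8, lay at chr7:142575588-142578115. It was 2528 bases wide, ran over 96.6% of the gene and took in the whole miR-675 hairpin. Among all 19465 peaks, whose median width was 271 bases, 1.01% were at least as wide. It was also the highest peak per length, at 19964 and 24470 CPM per kb in control against 41188 and 30812 CPM per kb in Lin28a+ MuSCs, where the median peak had 73.1 CPM per kb over the libraries. The next peak per length was one of the integrin gene Itga9, at 11528 CPM per kb.

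The Lin28a-RIP peak of H19 lay wholly inside the Igf2bp3-RIP peak. It lay at chr7:142575941-142576197, 257 bases, 1949 to 2205 bases from the 5′ end of the gene, and made up 10.2% of the width of the Igf2bp3-RIP peak. It did not reach the miR-675 hairpin, from which 866 bases separated it. Among all Lin28a-RIP peaks, whose median width was 285 bases, 61.5% were at least as wide as the H19 peak. This peak counted 98450 and 99454, or 2689 and 2933 CPM (2811 ± 172, SD, n = 2). By counts it was the 6th of 21616 Lin28a-RIP peaks. Per length it was the 1st, at 10464 and 11413 CPM per kb, beside 3310 for the next, a peak of the chaperone gene Hsp90ab1, and a median of 63.2 CPM per kb. Lin28a-RIP has no control group here, so these are levels without a comparison.

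**Figure D2:**
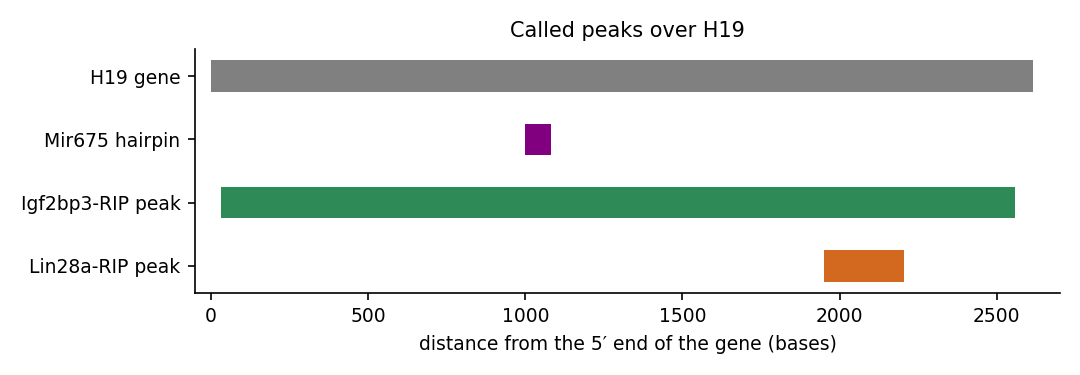
Positions of the miR-675 hairpin and of the called Igf2bp3-RIP and Lin28a-RIP peaks along H19, as distance in bases from the 5′ end of the gene (bars are drawn to scale, the grey bar is the gene). The Igf2bp3-RIP peak runs over 96.6% of the gene and contains the hairpin, and the Lin28a-RIP peak of 257 bases lies 866 bases away from the hairpin.

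The Igf2bp3-RIP signal of H19 was higher in both Lin28a+ libraries but did not pass the test. The H19 peak stood at 50470 and 61861 CPM in control replicates 1 and 2, and at 104123 and 77891 CPM in Lin28a+ replicates 1 and 2. The groups did not overlap, beside 16.8% of all peaks that were higher in Lin28a+ MuSCs without overlap. Replicate 1 was the lower of the control libraries and the higher of the Lin28a+ libraries, so that the ratio of Lin28a+ to control was 2.06 between the replicates numbered 1 and 1.26 between those numbered 2. The group means were 56165 ± 8055 and 91007 ± 18549 CPM (SD, n = 2 each), 1.62-fold apart. With edgeR's quasi-likelihood test over all peaks, the log2 fold change was 0.67 (SE 0.464, adjusted p = 1.0), where 0.0616% of peaks rose. With the peaks of each gene summed it was 0.65 (SE 0.377, adjusted p = 0.728 by the same test), exceeded by 4.71% of 4527 genes, of which 0.133% rose. Over the alternatives tried, the adjusted p of H19 in edgeR or DESeq2 lay between 0.379 and 1.0 in these fits. This test does not show the H19 signal to be equal in the groups: the SE allows a difference as large as the one in m6A-RIP.

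Igf2 RNA was 10.1-fold lower in Lin28a+ MuSCs than in control MuSCs, the value for which the gene was chosen. Input libraries of control MuSCs had 862 and 902 CPM of Igf2 (ENSMUSG00000048583), from 4711 and 5610 estimated counts. Lin28a+ input libraries A and B had 86.0 and 87.9 CPM, from 435 and 426. The groups lay far apart and their libraries within 1.05-fold of each other, beside 37.9% of all input genes that were lower in Lin28a+ MuSCs without overlap. The means were 882 ± 28.2 and 86.9 ± 1.39 CPM (SD, n = 2 each), with 9.86% of the control level left. The fitted log2 fold change was -3.37 (SE 0.0306), and 77 of 11317 genes, or 0.68%, had a lower one. In bulk libraries, fewer cells that express Igf2 and less Igf2 RNA per cell cannot be told apart. Igf2 ranked 122 and 117 among 14820 named genes by input counts in control, and 1698 and 1664 in Lin28a+ MuSCs.

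Muscle genes moved with Igf2 RNA in both directions. Muscle stem cell markers rose in 2 and fell in 3 of the 7 tested, and differentiation markers rose in 4 and fell in 4 of the 8 tested, beside 28.1% of all genes that rose and 28.7% that fell in RNA. Pax7, the satellite cell factor, was at 139 and 154 CPM in control against 194 and 190 CPM in Lin28a+ MuSCs. Myf5, a myogenic determination factor, was at 441 and 464 CPM against 198 and 202 CPM, and Myog, the factor that drives differentiation, at 748 and 774 CPM against 2785 and 2837 CPM. Tnnt2, a cardiac troponin T also made in immature muscle, was at 71.3 and 71.5 CPM against 15.3 and 16.1 CPM. With edgeR's quasi-likelihood test, Pax7 rose by a log2 fold change of 0.36 (adjusted p = 0.00107), Myf5 fell with -1.21 (adjusted p = 6.07e-06), Myog rose with 1.86 (adjusted p = 1.29e-06), and Tnnt2 fell with -2.21 (adjusted p = 6.07e-06). Of the other stem cell markers, Cdh15 (0.77) also rose, Vcam1 (-1.93) and Des (-0.53) also fell, and Myod1 (0.01) and Itga7 (-0.06) did not pass. Of the other differentiation markers, Actc1 (3.75), Mymx (1.54) and Ckm (0.60) also rose, and Acta1 (-1.07), Myh3 (-0.57) and Mymk (-0.20) also fell by this test. The part of cell state in the Igf2 values was not tested.

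The m6A-RIP signal of Igf2 was lower in Lin28a+ MuSCs, as its RNA was. Over its 6 rows summed, Igf2 stood at 2915 and 2796 CPM in control and at 387 (library A) and 562 CPM (library B) in Lin28a+ MuSCs. Both Lin28a+ libraries were below both control libraries, and library B was 1.45-fold above library A, where the control libraries were 1.04-fold apart. The means, 2856 ± 83.9 and 474 ± 124 CPM (SD, n = 2 each), differed 6.02-fold. The fitted log2 fold change was -2.49 (SE 0.122), beside 33.8% of all genes called lower. Among the 9416 genes, 115 had a lower log2 fold change. By m6A-RIP counts Igf2 went from rank 23 and 25 of 9413 named genes in control to rank 309 and 181 in Lin28a+ MuSCs.

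The first 4 Igf2 rows, all assigned to ENSMUST00000163148.2, were lower in both Lin28a+ libraries. Row 1 had 876 and 726 CPM in control against 204 (A) and 121 (B) CPM in Lin28a+ MuSCs. Row 3, the highest by its control mean, had 911 and 986 CPM against 93.9 and 146 CPM. In both rows the groups lay apart, but library A was above library B in row 1 and below it in row 3. Row 2 had 399 and 297 CPM against 27.4 and 78.9 CPM, and row 4 had 523 and 571 CPM against 48.8 and 104 CPM. Rows 2 and 4 were also without overlap, beside 50.7% of all rows that were lower in Lin28a+ MuSCs without overlap, with library B above library A in each. The fitted log2 fold changes of rows 1 to 4 were -2.15, -2.54, -2.83 and -2.68, beside 31.8% of all rows called lower. Without library B, rows 2 and 4 had -3.52 and -3.33, and without library A they had -1.98 and -2.24.

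Igf2 rows 5 and 6 were the ones in which the Lin28a+ libraries disagreed most. Row 5, assigned to ENSMUST00000121128.7, had 198 and 210 CPM in control, 10.7 CPM in library A and 61.2 CPM in library B. Its log2 fold change was -2.32 (SE 0.42), and it was -4.11 without library B and -1.58 without library A. Row 6, assigned to ENSMUST00000105935.7, was low in control, with 6.6 and 6.0 CPM, lower still in library A with 2.02 CPM, and at 50.8 CPM in library B. The groups overlapped in row 6, and its log2 fold change was 2.25 (SE 0.761). Without library B it was -1.49, so the direction of row 6 rested on 1 library. Row 1 held 30.0% and 26.0% of Igf2 counts in control, 52.8% in library A and 21.6% in library B.

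**Figure D3:**
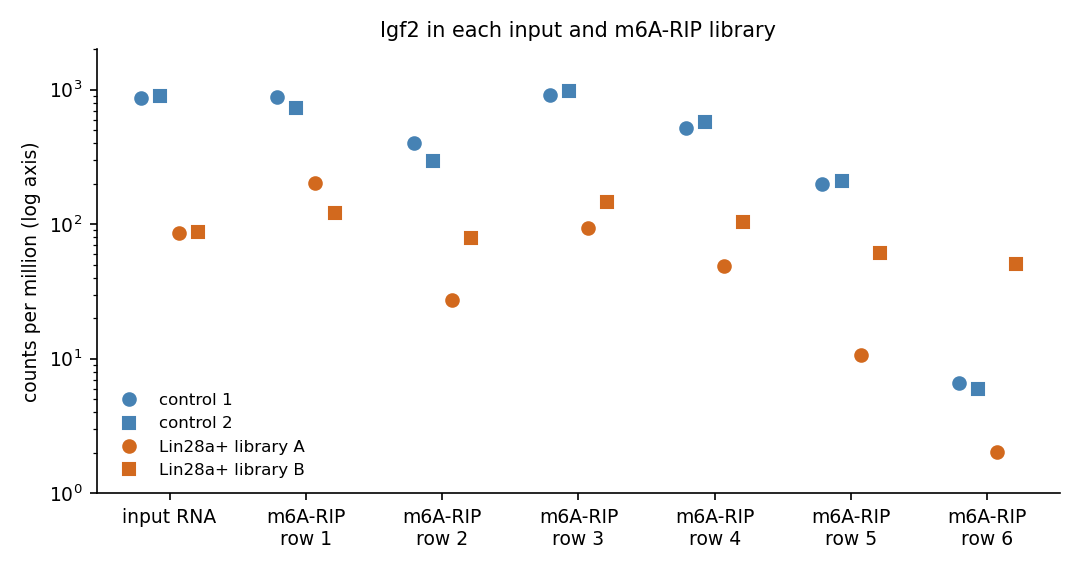
Igf2 in CPM (log axis) in the input and in its 6 m6A-RIP rows, 1 point per library (blue for control, orange for Lin28a+ MuSCs, circles for replicate 1 or library A, squares for replicate 2 or library B). The groups lie apart in the input and in rows 1 to 5, and in row 6 library A (2.02 CPM) is below and library B (50.8 CPM) above the control libraries.

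The gap between the Lin28a+ m6A-RIP libraries was large for Igf2 and small for H19. Library B over library A was 0.594, 2.88, 1.55, 2.12, 5.75 and 25.2 for Igf2 rows 1 to 6, and 1.02 and 0.958 for the H19 rows. On the scale of log2(CPM + 1), 95% of the 17050 rows with a mean of at least 100 counts had an absolute gap of up to 0.37, with a median of 0.10, and in the control pair these were 0.35 and 0.09. All 6 Igf2 rows lay past that range: 114 rows had a larger gap than row 3, the least of the 6, and 1 row had a larger gap than row 6. These counts choose rows by their gap and carry no test.

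Ins2, an insulin gene 11839 bases from Igf2 on the side away from H19, had the same kind of gap. Its m6A-RIP row stood at 5.5 and 5.0 CPM in control, 5.56 CPM in library A and 54.8 CPM in library B, a ratio of 9.86 between the Lin28a+ libraries, and 3 rows had a larger gap. Among the other genes within 500 kb of Igf2, 10 genes with 28 rows and H19 among them, the ratio of B to A lay between 0.684 and 2.00. The highest were a row of Cd81, a tetraspanin gene, and a row of Tssc4, both at 2.00, and both on the Ins2 side. On the H19 side the ratios lay between 0.684 and 1.62, both of them rows of Tnnt3, which encodes fast skeletal troponin T. What sets library B apart over Igf2 and Ins2 was not tested.

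**Figure D4:**
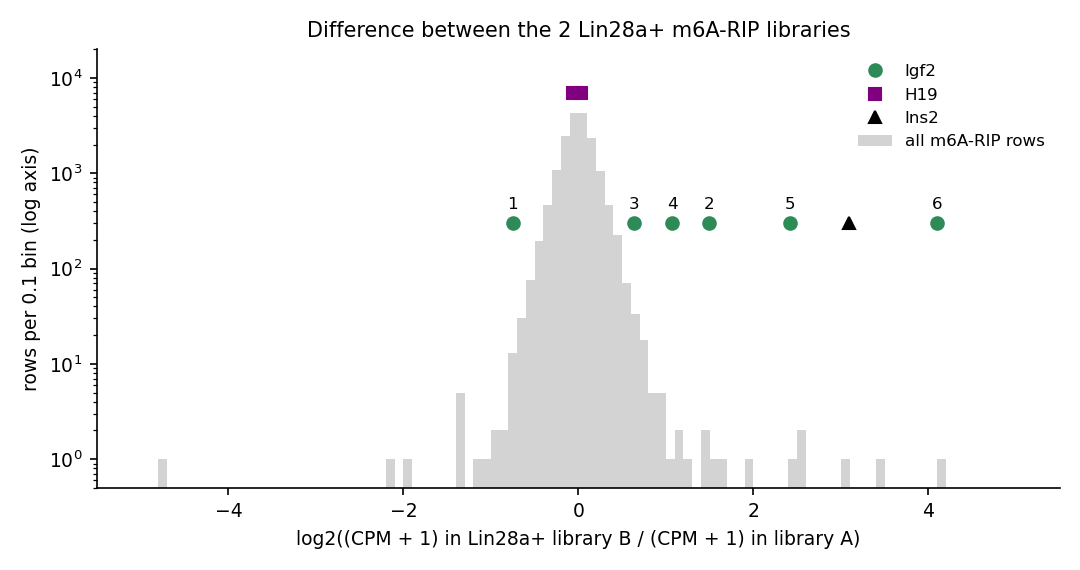
Number of m6A-RIP rows (grey bars, log axis, 0.1 bins) by the difference in log2(CPM + 1) of Lin28a+ library B minus library A, with the rows of Igf2 (green circles, numbered), H19 (purple squares) and Ins2 (black triangle) marked at their difference, at heights chosen for legibility. Igf2 rows 2 to 6 and Ins2 lie to the right, from 0.63 to 4.10, Igf2 row 1 lies at -0.75, and the H19 rows lie at 0.03 and -0.06.

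Set against the input in 1 model of both assays, the m6A-RIP signal of Igf2 was less reduced than its RNA. The log2 difference between the m6A-RIP change and the RNA change was 0.87 (SE 0.213), given as a description because the gene was chosen on its RNA. It was 1.12 without m6A-RIP library A and 0.57 without library B. Of the 7943 genes in this model, 3.99% had a higher value, and 3.05% were called higher.

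**Figure D5:**
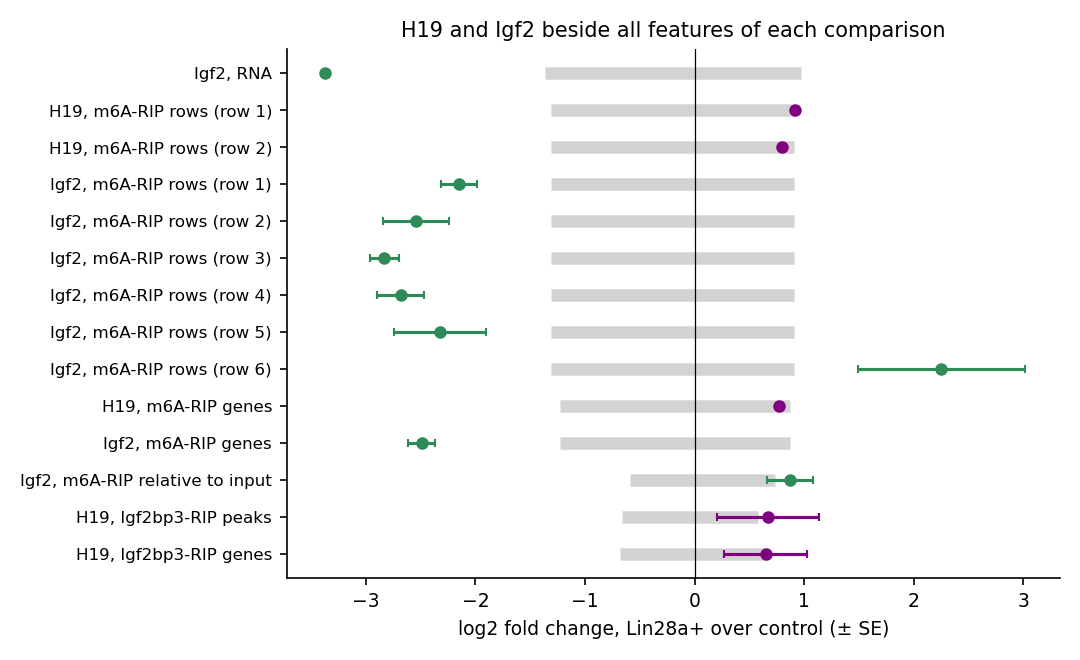
Log2 fold change of Lin28a+ over control MuSCs with its SE for every Igf2 (green) and H19 (purple) value, beside the range from the 5th to the 95th percentile of all features in the same comparison (grey bars). Igf2 lies at -3.37 in RNA and at -2.83 to -2.15 in m6A-RIP rows 1 to 5, row 6 lies at 2.25, and H19 lies between 0.65 and 0.92 in all its comparisons.

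The genes around the locus did not share 1 direction. Of 17 flanking genes listed, 7 were tested in RNA, of which 2 rose, 3 fell and 2 did not pass, with a median log2 fold change of -0.11 beside 0.01 for all genes. The largest rise was that of Lsp1, which encodes an actin-binding protein of leukocytes, from 83.9 and 84.5 CPM to 155 and 153 CPM (log2 fold change 0.84, adjusted p = 1.8e-05 with edgeR's quasi-likelihood test). Ctsd, the lysosomal protease cathepsin D, fell most, from 975 and 1013 CPM to 552 and 560 CPM (log2 fold change -0.87, adjusted p = 7.18e-06 with edgeR's quasi-likelihood test). In m6A-RIP, 3 of 8 flanking genes rose and 2 fell, beside 32.5% of all genes that rose and 33.8% that fell. Ins2 was 1 of the 3, with library A at the control level and library B alone above it.

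Among the genes listed for the IGF axis, Igf2bp3 RNA rose most. Of 17 genes listed, 10 were tested in RNA, of which 3 rose and 5 fell, with a median log2 fold change of -0.16. Igf2bp3 went from 11.3 and 10.7 CPM to 35.8 and 34.3 CPM, without overlap (log2 fold change 1.65, SE 0.0704, adjusted p = 2.78e-05 with edgeR's quasi-likelihood test), so the antibody target of the Igf2bp3-RIP had more RNA in Lin28a+ MuSCs. Stc1, which encodes a secreted glycoprotein that inhibits the protease PAPP-A, fell most, from 21.4 and 23.6 CPM to 10.5 and 14.5 CPM (log2 fold change -0.89, adjusted p = 0.00238 with the same edgeR test). Irs2 (log2 fold change 1.09) and Furin (0.22) also rose, and Insr (-0.72) and Irs1 (-0.35) also fell by this test.

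Igf1r, a receptor through which Igf2 signals, was lower in Lin28a+ MuSCs, and Igf2r, which clears Igf2, differed little between the groups. Igf1r was at 29.7 and 31.5 CPM in control against 24.8 and 24.4 CPM in Lin28a+ MuSCs, and Igf2r at 237 and 242 CPM against 243 and 245 CPM. Igf2bp2, a relative of Igf2bp3, was at 27.1 and 29.5 CPM against 23.2 and 23.8 CPM. Igf1r and Igf2bp2 fell, with log2 fold changes of -0.34 (adjusted p = 0.00895 with edgeR's quasi-likelihood test) and -0.31 (adjusted p = 0.0245), and Igf2r did not pass with -0.01 (SE 0.0244, adjusted p = 0.916). Igf2bp1 was below the filter on low counts. In m6A-RIP, 4 of the 9 IGF axis genes tested rose and 4 fell, beside 32.5% and 33.8% of all genes, with Ins2 among the former and its library A at the control level.

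Of 21 regulators of imprints (CTCF, cohesin, DNA methylation and KRAB zinc finger factors), 17 were tested in RNA, of which 5 rose and 6 fell, with a median log2 fold change of 0.14. Uhrf1, which brings Dnmt1 to replicating DNA, rose most, from 36.8 and 40.6 CPM to 90.3 and 92.7 CPM (log2 fold change 1.21, adjusted p = 2.18e-05 with edgeR's quasi-likelihood test). Stag2, a cohesin subunit, fell most, from 19.4 and 19.1 CPM to 1.68 and 2.12 CPM (log2 fold change -3.34, adjusted p = 1.2e-05). Stag2 also fell in Igf2bp3-RIP, from 448 and 368 CPM to 67.4 and 36.2 CPM (log2 fold change -3.03, adjusted p = 0.0404 with edgeR's quasi-likelihood test over genes), the only gene of these lists called there, beside 0.287% of all genes called in either direction.

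Other imprinted genes often grouped with H19 and Igf2 moved both ways. Of 25 listed, 14 were tested in RNA, of which 4 rose and 5 fell, with a median log2 fold change of -0.05. Cdkn1c, the cell cycle inhibitor p57, whose gene lies in a neighbouring imprinted cluster, rose most, from 0.476 and 0.321 CPM to 11.2 and 10.6 CPM (log2 fold change 4.57, adjusted p = 3.18e-05 with edgeR's quasi-likelihood test). The control level of Cdkn1c rested on very few counts, so the size of its log2 fold change is uncertain. Ndn, which encodes the growth suppressor necdin, fell most, from 87.6 and 94.7 CPM to 17 and 14 CPM (log2 fold change -2.58, adjusted p = 1.11e-05). In m6A-RIP, 2 of 11 of these genes rose and 7 fell, beside 32.5% and 33.8% of all genes.

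Of 18 genes whose products or RNAs have been linked to H19 RNA, 17 were tested in RNA, of which 2 rose and 7 fell, with a median log2 fold change of 0.05. Cdc6, a replication licensing factor and a described target of miR-675, rose from 8.69 and 10.0 CPM to 22.6 and 23.8 CPM (log2 fold change 1.28, adjusted p = 9.41e-05 with edgeR's quasi-likelihood test). Smad1 (-0.68), Smad5 (-0.33) and Rb1 (-0.68), also described as targets of miR-675, fell by the same test. Hmga2, a chromatin protein and let-7 target, fell most, from 139 and 135 CPM to 22.1 and 28.0 CPM (log2 fold change -2.48, adjusted p = 1.31e-05). In m6A-RIP, 6 of 15 rose and 7 fell, beside 32.5% and 33.8% of all genes. In all of these lists the shares that rose and fell in RNA stand beside the 28.1% and 28.7% of all genes, and no list was tested as a set.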

How the data were processed

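Lin28a+ MuSCs were set against control MuSCs in 14 libraries. The input values that the authors deposited are estimated counts of genes, some with decimals, and were rounded before testing. For the RIP libraries they deposited whole-number counts per row or peak, not scaled between libraries. Per the paper's methods and the submitters' processing notes, reads were checked with FastQC, aligned with HISAT2 2.0.4, and processed with MACS2 1.4.3 and DESeq2 1.42.0. The builds GRCh38, a human one, and mm10 are both named. Of the Igf2bp3-RIP and Lin28a-RIP peaks with a gene symbol, 99.9% and 100% lay on the chromosome of their gene in RefSeq GRCm38.p6, and 80.6% and 86.1% overlapped it, so mouse positions were read as GRCm38. The counting tool and the peak threshold are not given in the sources used here, nor is any pooling for peak calling, and no positions of m6A-RIP rows or exons were used.

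Columns were assigned by name, except the Lin28a+ columns of the input table, which carry the names of m6A-RIP samples. They were taken as input because the input samples name that table as theirs. Every Lin28a+ RNA value rests on this assignment, and 0 columns were left without a sample. In the m6A-RIP table both Lin28a+ columns carry the same name, and in the input table their names belong to another assay. The Lin28a+ columns of these tables therefore have a group and no number. CPM is counts per 1000000 counts of the library in the same table. The main test was edgeR 4.0.16 (R 4.3.3) with glmQLFit and glmQLFTest, TMM factors, filterByExpr and Benjamini-Hochberg adjustment over all features, with an adjusted p under 0.05 as the threshold and only the 4 libraries of an assay in a fit. The fit relative to input held both assays, with an interaction of cells and assay. Tests of Igf2 in m6A-RIP were run as planned but are given as values without p, because the gene was chosen on its RNA. The SE rests on the spread of 2 libraries per group, shared among features, whose biological coefficient of variation was 2.48% for RNA, 7.72% for m6A-RIP rows and 27.9% for Igf2bp3-RIP peaks. The tests were checked on simulated data, where those of Igf2bp3-RIP missed most of the changes put in. The members and gene lists were chosen with earlier results of these data known. Named were H19, Igf2, the gene of each list that rose and fell most in RNA, Igf1r, Igf2r, Igf2bp1, Igf2bp2 and Igf2bp3, and for each member the 3 genes of most similar pattern; Acta2 and the other cell type markers, Smad1, Smad5, Rb1, Ins2, Cd81, Tssc4, Tnnt3, the Igf2bp3-RIP result of Stag2 and the highest other genes were named after their values were seen. Irs1, Irs2, Insr and Furin were also named after their values were seen. Igf2bp3-RIP relative to input and Lin28a-RIP relative to input could not be computed for either member, because no member was analysed in both tables. Alternatives were other scalings, filters, DESeq2, a replicate block, 1 row per gene and each library left out.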

Additional observations from a re-analysis of the deposited data

How the results depend on the processing

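Under the alternatives tried, no tested H19 value crossed the threshold, and no H19 or Igf2 value turned its sign except m6A-RIP row 6 of Igf2, with a log2 fold change between -1.49 (without Lin28a+ library B) and 3.16 (without library A). Igf2 RNA ranged from -3.39 to -3.34, m6A-RIP from 0.67 to 0.79 (H19) and from -2.88 to -2.24 (Igf2), and m6A-RIP relative to input from 0.57 (without m6A-RIP library B) to 1.12. H19 in Igf2bp3-RIP ranged from 0.43 to 0.88 over peaks and from 0.46 to 0.86 over genes, and passed in no fit. Counts over all features moved more. DESeq2 called 3039 RNA genes (6434 with edgeR), 335 relative to input (567), 263 Igf2bp3-RIP peaks (24) and 115 Igf2bp3-RIP genes (13). Asking for at least 10 counts in every library left 0 peaks with edgeR, with 973 at an unadjusted p under 0.05. Igf2bp3-RIP genes numbered 7 with total counts and 21 with the top peak of a gene alone. Leaving out 1 library gave 299 to 619 genes relative to input, 108 to 193 Igf2bp3-RIP peaks and 39 to 73 Igf2bp3-RIP genes; the cause was not tested. Total counts moved the median m6A-RIP row by -0.154 and the median m6A-RIP gene by -0.101 on the log2 scale. With the replicate number of Igf2bp3-RIP as a block, 1988 peaks and 374 genes were called, and H19 had 0.66 (adjusted p = 0.451) and 0.65 (adjusted p = 0.476) with edgeR; same-numbered libraries deviated together (r = 0.686 over peaks, 2 pairs), but the labels do not tie a number to a batch, so the pairing was not used. No paired analysis was possible for input and m6A-RIP because their Lin28a+ columns carry no usable numbers. Igf2bp3-RIP relative to input and the pseudocounts of a Lin28a-RIP to input ratio were not run, since neither gene was analysed in both tables. With 2 libraries per group and a spread of 27.9% between Igf2bp3-RIP libraries, a difference of the size of H19's did not pass there.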

Other observations

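Likeness of other genes to H19 and Igf2 was measured as the root mean square difference of group means of log2(CPM + 1), after taking off the gene's own mean, over the assay and cell groups in which the member was analysed; these points share libraries and no test was run. For H19, over 5 groups and 1611 genes, the closest were Atxn1l (0.41), Sparc (0.49) and Zfp521 (0.52), where the median gene had 2.44. Sparc, a secreted matrix protein, was at 1969 and 1949 CPM in control against 1473 and 1430 CPM in Lin28a+ m6A-RIP libraries, lower in Lin28a+ MuSCs where H19 was higher, and so was Zfp521, at 96.1 and 98.6 CPM against 77.2 and 82.7 CPM, while Atxn1l was higher, at 139 and 135 CPM against 163 and 166 CPM. Levels of the RIPs are not on 1 scale. For Igf2, over 4 groups and 5664 genes, the closest were Chst15 (0.27), Ptger4 (0.36) and Akap12 (0.40), where the median gene had 1.79. Chst15, a sulfotransferase, was at 34.9 and 32.8 CPM in control input and 3.71 and 5.43 CPM in Lin28a+ input. Its m6A-RIP counts were 143 and 145 CPM in control, 18.6 CPM in library A and 16.9 CPM in library B, without the gap that Igf2 had between these libraries.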
